A study of Arabidopsis thaliana with 35 samples.

Results

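Cytochrome P450 genes were taken as the genes whose symbol in the probe annotation begins with CYP and a digit, with 1 probe set per gene. The rule found 26 genes among the 13356 genes tested. The RefSeq annotation names 24 of them as cytochrome P450s and the other 2, CYP59 and the gene with the plain symbol CYP71, as cyclophilins, a family of protein-folding enzymes that shares the prefix. All counts below are over the 24 P450 genes, and the cyclophilins are described apart at the end. The subfamily CYP71B holds 19 of the 24, and CYP51G2, CYP718, CYP78A9, CYP79A2 and CYP84A4 each stand alone in their subfamily, so that CYP71B is the one subfamily with enough measured genes to be summarised. A further 2 probe sets name several genes, at least 1 with a CYP symbol, and were not used.

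Cytochrome P450s are haem enzymes that insert oxygen into small molecules, most of them held in the membrane of the endoplasmic reticulum and fed with electrons by a reductase. Plants have many, and they serve the synthesis of hormones, sterols, pigments, lignin and defence compounds. CYP71B is a large plant subfamily whose genes often lie side by side on a chromosome, and for most of its members no substrate is given here. In the RefSeq annotation of assembly TAIR10.1, 11 of the 19 CYP71B genes fall into 1 stretch that runs from CYP71B16 to CYP71B37. Within it CYP71B21, CYP71B22 and CYP71B23 are direct neighbours, and so are CYP71B34, CYP71B35, CYP71B36 and CYP71B37. CYP71B28 and CYP71B29 are direct neighbours elsewhere, as are CYP71B5 and CYP71B30P. CYP71B27 and CYP51G2 are annotated as transcribed pseudogenes.

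The arrays hold total RNA of roots, cotyledons and hypocotyls cut from seedlings of RRS-7, a natural accession of Arabidopsis thaliana. All seedlings grew at 20 °C for 5 days in long days (16 h of light, then 8 h of darkness). They then stayed at 20 °C or were moved to 28 °C at ZT 7, which is 7 h after the lights came on, and were harvested 3 h later, at ZT 10, or 24 h later, at ZT 7 of day 6. The 35 arrays form 12 groups of organ, temperature and time. Each group has 3 arrays, but the warm root group of 3 h has 2 in the data used here. The labels call the replicates biological and pooled over several harvest sessions, so p-values measure the spread between such pools.

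Expression is given as the authors' log2 signal per probe set, on which a step of 1 is a factor of 2. Levels were tested within a gene and not between genes, since probe sets differ in brightness. Levels of different genes were set side by side only to mark dim ones, and summed only for markers. Array medians ran from 5.65 to 5.74 in cotyledons and from 5.82 to 5.93 in the other organs, and replicates correlated at 0.992 to 0.997. Organ labels were set against marker genes. The summed signal of the 2 measured of 10 green leaf markers, RCA and PRK of carbon fixation, reached 14.32 to 14.48 in cotyledons, 13.62 to 13.92 in hypocotyls and 7.59 to 8.85 in roots. EXPA7, an expansin of root hairs and 1 of 3 measured of 12 root markers, lay between 7.67 and 8.74 in every root array and at 5.05 or below in every other array. In organs taken whole, fewer cells of a type and less RNA per cell cannot be told apart.

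At 20 °C most of the 24 P450 genes differed between organs, as did most of all genes tested (18 of 24 between root and cotyledon, against 76.5%). A gene was called preferred in an organ when it was higher there than in both other organs and both comparisons passed at an adjusted p under 0.05 (limma, all 35 arrays, Benjamini-Hochberg over all genes). By this rule 10 P450 genes were preferred in the cotyledon, where 26.5% of all genes were, 5 in the root, where 30.4% were, and 1 in the hypocotyl, where 8.72% were. The cotyledon genes were CYP71B24, CYP71B25, CYP71B26, CYP71B27, CYP71B28, CYP71B30P, CYP71B34, CYP71B35, CYP71B36 and CYP84A4. The root genes were CYP71B22, CYP71B23, CYP71B37, CYP718 and CYP51G2, and the hypocotyl gene was CYP71B29. No organ was preferred for the other 8, against 34.3% of all genes. With the added demand that both differences be at least 2-fold, CYP71B37 and CYP71B23 remained for the root, against 8.57% of all genes, and CYP71B36 for the cotyledon, against 4.61%, and 0 for the hypocotyl, against 0.951%. Each of these counts rests on 6 arrays per organ. With the 3 h arrays alone 8 P450 genes met the first rule for the cotyledon, among them CYP71B38 but not CYP71B26, CYP71B30P or CYP84A4. With the 24 h arrays alone 8 met it, without CYP71B27 and CYP71B34.

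Against the cotyledon, the root had 5 P450 genes higher, where 39.1% of all genes were, and 13 lower, where 37.5% were. Together these are 18 of 24, where 76.5% of all genes passed, with a median log2 difference of -0.20 where that of all genes was -0.03. The hypocotyl had 2 higher (all genes: 30.2%) and 15 lower (36.1%), where 66.3% of all genes passed either way, with a median of -0.24 against -0.06 for all genes. Between root and hypocotyl 6 were higher (35.9%) and 7 lower (24.5%) in the root, where 60.4% of all genes passed either way, with a median of -0.03 against 0.03. These comparisons share arrays with each other. The share of P450 genes that passed was thus close to the background, and more of those that passed were higher in the cotyledon than lower. With every array centred on its own median, which moved the median of all genes to -0.19 for root and -0.27 for hypocotyl against cotyledon, the P450 split became 5 higher and 18 lower for the root and 2 higher and 20 lower for the hypocotyl. Without dim genes it was 5 and 8 for the root and 2 and 9 for the hypocotyl. The all-gene share of higher calls then moved from 51.1% to 58.6% for root and from 45.5% to 53.3% for hypocotyl. Centring the arrays moved the all-gene share of higher calls from 51.1% to 38.7% for root and from 45.5% to 24.4% for hypocotyl. The cotyledon count rose from 10 to 16 under this scaling and fell to 6 when dim genes were left out, while the root and hypocotyl counts kept their size under both.

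**Figure D1:**
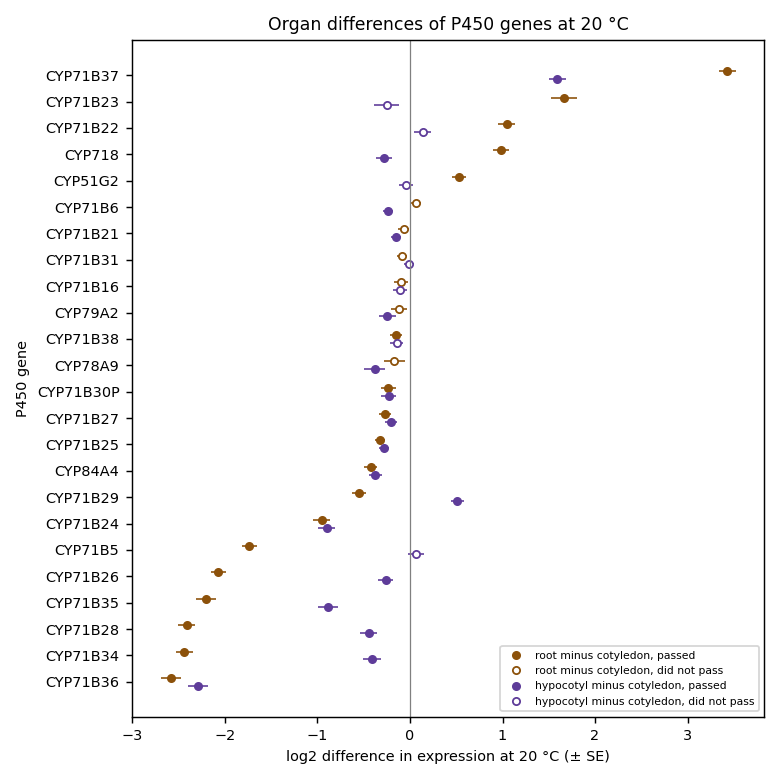
Log2 difference in expression at 20 °C of root minus cotyledon (brown) and hypocotyl minus cotyledon (purple), with standard errors from the fit, for the 24 P450 genes ordered by the first. Filled points passed at an adjusted p under 0.05. CYP71B37 stands at 3.43 at the top and CYP71B36 at -2.58 at the bottom, and 6 genes, CYP71B36 to CYP71B5, were lower in the root by over 1.

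Among the root genes CYP71B37 differed most. Its 6 root arrays at 20 °C ran from 6.99 to 7.43 with a median of 7.05. The hypocotyl arrays ran from 5.06 to 5.56 and the cotyledon arrays from 3.46 to 4.08. The organs did not overlap and formed a ladder of root, hypocotyl and cotyledon. The root was above the cotyledon by 3.43 ± 0.09 (SE), a 10.8-fold difference (limma adjusted p = 2.36e-26), and above the hypocotyl by 1.84 ± 0.09. CYP71B23 was the other gene preferred at least 2-fold. It ranged from 6.77 to 7.51 in root, from 4.70 to 5.52 in hypocotyl and from 5.18 to 6.10 in cotyledon. The root arrays of CYP71B23 were all above the others, by 3.18-fold over cotyledon and 3.78-fold over hypocotyl, while hypocotyl and cotyledon overlapped and did not pass.

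The remaining root genes differed less. CYP71B22, direct neighbour of CYP71B23, lay between 5.49 and 6.05 in root and between 4.53 and 4.92 in the other organs, a log2 difference of 1.04 ± 0.09 from cotyledon and 0.91 ± 0.09 from hypocotyl. CYP718, which forms a family of its own, lay between 5.49 and 5.88 in root, 0.98 ± 0.09 above cotyledon and 1.27 ± 0.09 above hypocotyl, and the hypocotyl differed from the cotyledon by -0.28. CYP51G2 is the annotated pseudogene related to CYP51G1, the sterol 14-demethylase of the plant. It lay between 4.28 and 4.54 in root and between 3.74 and 4.04 elsewhere, with log2 differences of 0.53 ± 0.07 and 0.57 ± 0.07. The mean of CYP51G2 over all arrays lay at the 27.8 percentile of all genes, just above the lowest 25% treated as dim. In all 3 genes no root array at 20 °C overlapped the other organs.

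The 4 neighbours CYP71B34 to CYP71B37 split by organ. CYP71B34, CYP71B35 and CYP71B36 were each highest in the cotyledon, whereas CYP71B37, next to CYP71B36, was lowest there. CYP71B36 ranged from 5.20 to 6.19 in the cotyledon, from 3.29 to 3.62 in the hypocotyl and from 2.88 to 3.23 in the root. Its level in the cotyledon was 4.90-fold that of the hypocotyl and 5.99-fold that of the root (adjusted p = 1.22e-20), and root minus hypocotyl was -0.29 ± 0.11 (adjusted p = 0.0215). The latter did not pass with the 3 h arrays alone (-0.25, adjusted p = 0.186) or the 24 h arrays alone (-0.33, adjusted p = 0.0716). In root and hypocotyl the gene lay as low as the dim genes named below. CYP71B34 and CYP71B35 had another shape, with the hypocotyl nearer to the cotyledon than the root. CYP71B34 ran from 7.24 to 7.62 in cotyledon, 6.91 to 7.16 in hypocotyl and 4.66 to 5.21 in root, the root lower than the cotyledon by 5.41-fold. With the 24 h arrays alone its hypocotyl minus cotyledon difference was -0.29 (adjusted p = 0.0684). CYP71B35 ran from 5.68 to 7.04, from 5.37 to 5.68 and from 4.09 to 4.42 in the same order, the root lower by 4.60-fold.

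**Figure D2:**
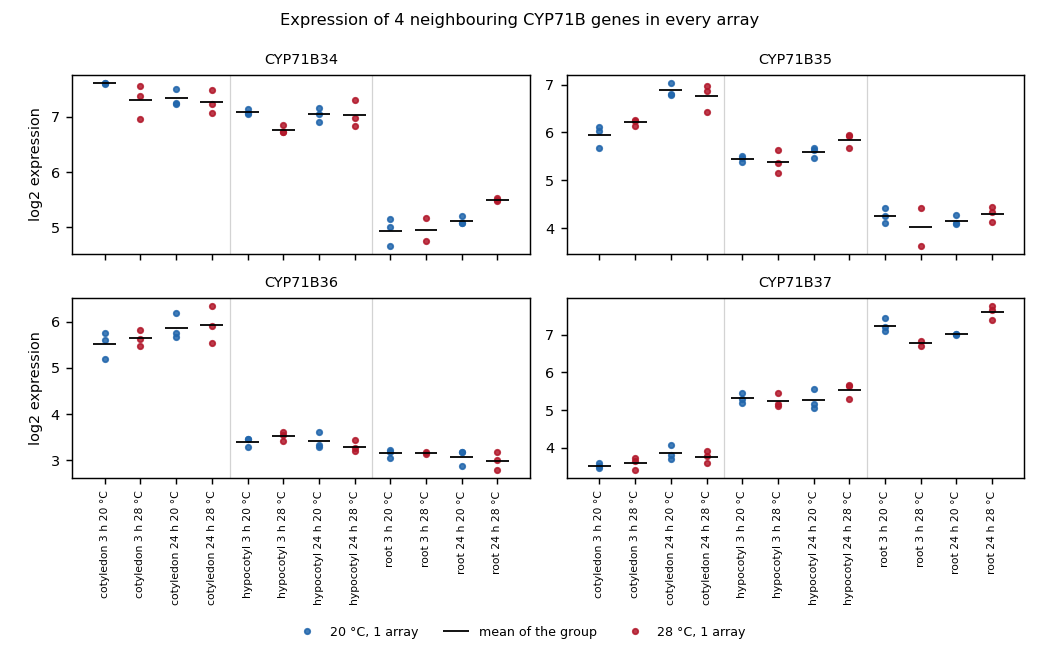
Log2 expression of CYP71B34, CYP71B35, CYP71B36 and CYP71B37, which follow each other in the annotation, in each of the 35 arrays (points, blue at 20 °C and red at 28 °C), with the mean of each of the 12 groups (lines). The 20 °C points of CYP71B36 lie at 5.20 to 6.19 in cotyledon and at 3.62 or below elsewhere, and those of CYP71B37 at 6.99 to 7.43 in root and at 5.56 or below elsewhere.

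CYP71B26 and CYP71B28 shared the shape of CYP71B34, with green organs high and the root low. CYP71B26 ranged from 8.00 to 8.97 in the cotyledon, from 8.01 to 8.46 in the hypocotyl and from 6.10 to 6.69 in the root. Cotyledon and hypocotyl of CYP71B26 overlapped, with a hypocotyl minus cotyledon difference of -0.26 ± 0.08, and the root was lower than the cotyledon by 4.20-fold. The hypocotyl minus cotyledon difference of CYP71B26 was 0.01 ± 0.11 (adjusted p = 0.937) with the 3 h arrays alone and -0.54 ± 0.11 (adjusted p = 0.000137) with the 24 h arrays alone. CYP71B28 ranged from 7.24 to 7.68, from 6.86 to 7.30 and from 4.75 to 5.34 in the same order, with the root lower by 5.32-fold. CYP71B5 was also low in the root, at 4.70 to 5.24, against 6.54 to 6.99 in the cotyledon and 6.68 to 6.90 in the hypocotyl. It missed the rule because the difference between cotyledon and hypocotyl, whose arrays overlapped, did not pass. The level of CYP71B5 in the root was lower than in the cotyledon by 3.33-fold and lower than in the hypocotyl by 3.47-fold.

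CYP71B29 was the one P450 gene preferred in the hypocotyl, and its direct neighbour CYP71B28 was preferred in the cotyledon. CYP71B29 ran from 6.85 to 7.19 in hypocotyl, from 6.26 to 6.65 in cotyledon and from 5.68 to 6.14 in root, with no overlap between organs. The hypocotyl was above the cotyledon by 0.51 ± 0.07, and root minus hypocotyl was -1.07 ± 0.07. CYP84A4 acts in the synthesis of arabidopyrones, alpha-pyrones made from phenylpropanoids. It ranged from 5.22 to 5.74 in the cotyledon, where some arrays overlapped the hypocotyl, at 5.03 to 5.35, and the root, at 4.95 to 5.25, and its differences from the cotyledon were -0.37 ± 0.07 in hypocotyl and -0.42 ± 0.07 in root. CYP71B6 turns indole-3-acetonitrile towards indole-3-carboxylic acid. Its levels, from 8.74 to 9.22 over all 18 arrays at 20 °C, differed by -0.24 ± 0.06 between hypocotyl and cotyledon and were higher in root than in hypocotyl by 0.30 ± 0.06. CYP78A9, known for its part in organ and fruit growth, differed between hypocotyl and cotyledon by -0.38 ± 0.11, but with the 24 h arrays alone the difference was -0.12 (adjusted p = 0.564).

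For 9 of the 24 genes the mean lay in the lowest 25% of all genes, where small differences are hard to tell from probe background. They were CYP71B16, CYP71B21, CYP71B24, CYP71B25, CYP71B27, CYP71B30P, CYP71B31, CYP71B38 and CYP79A2. Without the lowest 25% of all genes, the genes called lower in root than in cotyledon fell from 5003 to 3533, and those called higher from 5218 to 5005. For hypocotyl against cotyledon they fell from 4824 to 3478 and from 4034 to 3967. Calls that dim genes of all kinds added were thus mostly higher in the cotyledon. Among the 9 dim P450 genes, 4 were preferred in the cotyledon. CYP71B24 ranged there from 3.59 to 4.34 at 20 °C and did not exceed 3.13 in the other organs at 20 °C, with differences of -0.95 ± 0.09 for root and -0.90 ± 0.09 for hypocotyl against cotyledon. In CYP71B25, CYP71B27 and CYP71B30P these differences lay between -0.32 and -0.20. CYP79A2, which makes phenylacetaldoxime from phenylalanine for benzylglucosinolate, read between 3.12 and 3.76 in all 18 arrays at 20 °C. It passed as lower in the hypocotyl than in the cotyledon, with means of 3.33 and 3.57. With the arrays of 1 harvest alone it did not pass (adjusted p of 0.0726 for 3 h and 0.142 for 24 h). The probe sets of all 24 genes are of the plain type, but binding of related CYP71B transcripts to each other's probes was not tested.

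After the move to 28 °C, 1 to 6 of the 24 P450 genes passed at any 1 organ and time, where 9.67% to 28.5% of all genes did. Over the 6 comparisons 13 of the 24 genes passed at least once, where 51.6% of all genes did, and 11 passed in none. The share of P450 genes that passed at least once was thus close to the background. Of the 13, 8 passed in 2 comparisons. CYP71B22, CYP71B25, CYP71B29 and CYP71B6 were lower both times, CYP71B5 and CYP84A4 were higher both times, and CYP71B26 and CYP71B37 moved once each way. CYP71B22 was the one P450 gene that changed by 2-fold or more. Of the P450 genes preferred in an organ at 20 °C, 3 of 5 root genes passed in the root at 3 h or 24 h, where 38.6% of all root-preferred genes did, and 3 of 10 cotyledon genes passed in the cotyledon, where 41.3% did. The 1 hypocotyl gene passed in the hypocotyl, where 33.1% did.

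**Figure D3:**
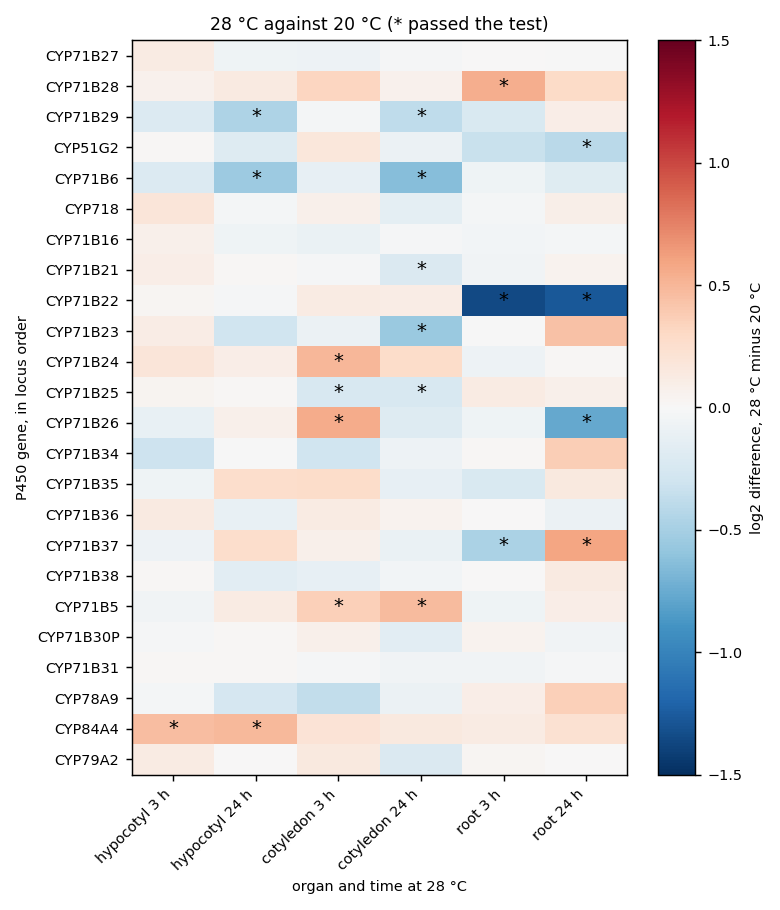
Log2 difference of 28 °C minus 20 °C for the 24 P450 genes, in locus order from top to bottom, in hypocotyl, cotyledon and root after 3 h and 24 h. Red is higher and blue lower at 28 °C, and a star marks the 21 differences that passed. The darkest cells are those of CYP71B22 in the root, at -1.35 and -1.28.

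In the root after 3 h 1 P450 gene was higher, where 5.38% of all genes were, and 2 were lower, where 5.35% were, or 3 of 24 where 10.7% of all genes passed either way. After 24 h 1 was higher (all genes: 8.39%) and 3 were lower (9.31%), where 17.7% passed either way. With the compared arrays alone in the fit the split after 24 h turned to 5 higher and 3 lower. CYP71B22 led both times. At 3 h its root arrays read 6.05, 5.67 and 5.49 at 20 °C and 4.36 and 4.41 at 28 °C. At 24 h they read 5.70, 5.67 and 5.77 at 20 °C and 4.36, 4.51 and 4.44 at 28 °C. Every warm array was over 1 below every 20 °C array, and lay under the range of the gene in cotyledon and hypocotyl at 20 °C, 4.53 to 4.92. The log2 differences were -1.35 ± 0.15 (adjusted p = 4.77e-08) and -1.28 ± 0.13 (adjusted p = 8.18e-09), or 2.56-fold and 2.42-fold lower. CYP71B23, next to it and also a root gene, differed by -0.01 and 0.44 at these times and did not pass.

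CYP71B37, the other strong root gene, went lower and then higher. Its root arrays read 7.43, 7.08 and 7.20 at 20 °C and 6.84 and 6.70 at 28 °C after 3 h. After 24 h they read 7.01, 7.02 and 6.99 at 20 °C and 7.66, 7.75 and 7.38 at 28 °C. Groups did not overlap at either time. The difference at 3 h was -0.47 ± 0.14 (adjusted p = 0.0291), which no longer passed without any 1 of 4 of the 5 arrays (values from -0.38 to -0.54, adjusted p from 0.0529 to 0.255), namely 28 °C replicates 1 and 2 and 20 °C replicates 1 and 3. At 24 h it was 0.59 ± 0.13 (adjusted p = 0.000995).

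CYP71B26, low in the root at 20 °C, was lower still at 28 °C after 24 h. The 20 °C arrays read 6.69, 6.42 and 6.68 and the 28 °C arrays 5.95, 5.63 and 5.92, without overlap, a difference of -0.76 ± 0.11 (adjusted p = 6.25e-06). CYP51G2, with a mean near the dim genes, read 4.45, 4.43 and 4.28 at 20 °C and 3.78, 4.03 and 4.11 at 28 °C after 24 h. Its difference of -0.41 ± 0.10 was -0.31 (adjusted p = 0.0619) without 28 °C replicate 1. CYP71B28 read 4.87, 5.12 and 4.75 at 20 °C and 5.33 and 5.60 at 28 °C after 3 h. Its rise of 0.55 ± 0.14 was 0.41 (adjusted p = 0.226) without 28 °C replicate 2 and 0.47 (adjusted p = 0.0611) without 20 °C replicate 3. The summed signal of the 3 measured root markers was 13.83 to 13.91 at 28 °C and 13.44 to 13.53 at 20 °C after 24 h in the root, and rested mostly on the brightest of them, PYK10. That of the 3 measured stomatal markers, dim in the root, was 5.12 to 5.42 and 5.03 to 5.08. Their part in these results was not tested.

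In the cotyledon after 3 h 3 P450 genes were higher, where 10.3% of all genes were, and 1 was lower, where 12.1% were, against 22.3% either way. After 24 h 1 was higher (all genes: 15%) and 5 were lower (13.4%), against 28.5% either way. The split after 24 h depended on the processing. It was 2 higher and 3 lower after a second quantile normalization, 1 and 2 with the compared arrays alone in the fit, 1 and 3 without dim genes, 1 and 4 with a replicate block, and 1 and 5 with the arrays centred, which moved the all-gene share of higher calls from 52.8% to 38.3%. The early rise was led by CYP71B26, with 8.20, 8.00 and 8.14 at 20 °C and 8.78, 8.62 and 8.62 at 28 °C. All warm arrays were above all 20 °C arrays, and the difference was 0.55 ± 0.11 (adjusted p = 0.00033). After 24 h CYP71B26 read 8.97, 8.87 and 8.97 at 20 °C and 8.64, 8.73 and 8.85 at 28 °C, which did not pass. At 20 °C all arrays of the later harvest were above all arrays of the earlier one, a difference that was not tested.

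CYP71B6 gave the largest fall in the cotyledon after 24 h. Its arrays read 9.08, 9.10 and 9.09 at 20 °C and 8.46, 8.54 and 8.35 at 28 °C, a tight pair of groups with a difference of -0.64 ± 0.08 (adjusted p = 1.71e-07). CYP71B29 was lower with it, at 6.65, 6.55 and 6.26 against 6.09, 6.20 and 6.02, by -0.38 ± 0.10 (adjusted p = 0.00507). CYP71B5 went the other way and was higher at both times. After 3 h it read 6.63, 6.67 and 6.54 at 20 °C and 6.97, 6.92 and 7.03 at 28 °C, a difference of 0.36 ± 0.12 (adjusted p = 0.0282). After 24 h it read 6.99, 6.96 and 6.60 against 7.22, 7.59 and 7.16, a difference of 0.47 ± 0.12 (adjusted p = 0.0029). Neither pair of groups overlapped, but the early difference of CYP71B5 no longer passed without any 1 of 4 of the 6 arrays, namely 20 °C replicates 1 and 3 and 28 °C replicates 1 and 3 (values from 0.33 to 0.37, adjusted p from 0.0551 to 0.0993).

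The other cotyledon calls were in dim or variable genes, and each was lost without 1 array. CYP71B24 was higher by 0.49 ± 0.13 after 3 h and by 0.32 (adjusted p = 0.0767) without 28 °C replicate 1. CYP71B23 differed by -0.55 ± 0.20 after 24 h and stood at -0.35 (adjusted p = 0.237) without 20 °C replicate 2 and at -0.40 (adjusted p = 0.186) without 28 °C replicate 3. CYP71B25 differed by -0.24 ± 0.08 at both times. After 3 h it stood at -0.21 without 20 °C replicate 2 or 28 °C replicate 1 and at -0.22 without 28 °C replicate 2. After 24 h CYP71B25 stood at -0.21 without 20 °C replicate 2, at -0.22 without 20 °C replicate 3 and at -0.18 without 28 °C replicate 3, and none of these 6 values passed. CYP71B21 differed by -0.21 ± 0.08 (adjusted p = 0.0487) after 24 h. It did not pass without any 1 of 20 °C replicates 1, 2 and 3 and 28 °C replicates 2 and 3, with values from -0.16 to -0.23, nor with a replicate block (adjusted p = 0.0586). In the cotyledon after 24 h the summed signal of the 3 measured of 6 stomatal markers was 6.39 to 6.65 at 28 °C and 6.82 to 6.90 at 20 °C. After 3 h that of the root markers was 11.63 to 11.97 at 28 °C and 11.43 to 11.61 at 20 °C, a sum that in the cotyledon is almost wholly PYK10. Their part in the results was not tested.

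In the hypocotyl after 3 h 1 P450 gene was higher, where 6.99% of all genes were, and 0 were lower, where 7.64% were, against 14.6% either way. After 24 h 1 was higher (all genes: 5.08%) and 2 were lower (4.58%), against 9.67% either way. CYP84A4 was higher both times. It read 5.03, 5.04 and 5.35 at 20 °C and 5.58, 5.57 and 5.65 at 28 °C after 3 h. After 24 h the values were 5.24, 5.24 and 5.22 at 20 °C and 5.64, 5.83 and 5.70 at 28 °C. The groups did not overlap, and the differences were 0.46 ± 0.10 (adjusted p = 0.00156) and 0.49 ± 0.10 (adjusted p = 0.00143). None of the 19 CYP71B genes passed after 3 h in the limma test, and 2 had an unadjusted p under 0.05.

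After 24 h CYP71B6 and CYP71B29 were lower at 28 °C in the hypocotyl. CYP71B6 read 8.93, 8.98 and 8.80 at 20 °C and 8.23, 8.43 and 8.41 at 28 °C, a difference of -0.55 ± 0.08 (adjusted p = 2.82e-05). CYP71B29 read 6.85, 7.19 and 6.99 at 20 °C and 6.41, 6.72 and 6.50 at 28 °C, a difference of -0.46 ± 0.10 (adjusted p = 0.00337). Both were without overlap. In the root after 24 h CYP71B6 and CYP71B29 differed by -0.18 and 0.10 and did not pass. The summed green leaf markers in the hypocotyl were 13.80 to 13.82 at 28 °C and 13.62 to 13.64 at 20 °C after 3 h, and the stomatal ones 6.91 to 7.33 and 7.42 to 7.52. After 24 h the green markers were 13.78 to 13.92 at 28 °C and 13.64 to 13.76 at 20 °C. Their part in these results was not tested.

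**Figure D4:**
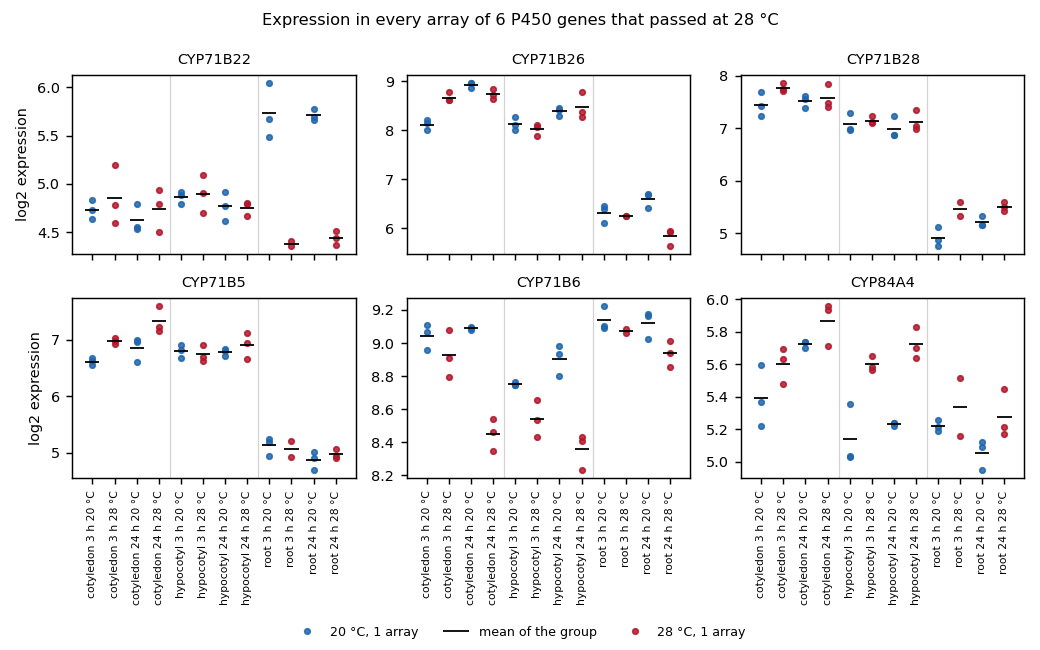
Log2 expression of CYP71B22, CYP71B26, CYP71B28, CYP71B5, CYP71B6 and CYP84A4 in each of the 35 arrays (points, blue at 20 °C and red at 28 °C), with the mean of each group (lines). Warm root arrays of CYP71B22 lie at 4.36 to 4.51 and the 20 °C root arrays at 5.49 to 6.05, and warm CYP71B6 arrays after 24 h lie at 8.35 to 8.54 in cotyledon and 8.23 to 8.43 in hypocotyl.

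Whether a temperature difference itself differed between organs was tested within the same fit. The change of CYP71B22 in the root was below that in the cotyledon by -1.48 ± 0.20 after 3 h and -1.39 ± 0.18 after 24 h, and below that in the hypocotyl by -1.39 ± 0.20 and -1.26 ± 0.18 (adjusted p from 1.05e-06 to 2.8e-05). In cotyledon and hypocotyl the gene itself differed by 0.12 and 0.03 after 3 h and by 0.12 and -0.01 after 24 h, none of which passed. CYP71B26 also differed between organs. After 24 h its change in the root was below that in the hypocotyl by -0.84 ± 0.16 (adjusted p = 0.000654) and below that in the cotyledon by -0.57 ± 0.16 (adjusted p = 0.0101). After 3 h its change in the cotyledon exceeded both others, with differences of -0.66 ± 0.16 for hypocotyl minus cotyledon and -0.61 ± 0.17 for root minus cotyledon. The first was -0.59 without 20 °C replicate 2 (adjusted p = 0.0537) or 28 °C replicate 3 (adjusted p = 0.0524) of the hypocotyl, and the second did not pass without either warm root array (-0.61 and -0.62, adjusted p of 0.054 and 0.0521).

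Root and cotyledon differed most often, among P450 genes as among all genes. After 24 h the changes of 7 P450 genes differed between them, where 20.1% of all genes did. CYP71B23 had the largest positive difference of root minus cotyledon, at 0.99 ± 0.28 (adjusted p = 0.00905), followed by CYP71B37 at 0.69 ± 0.18 (adjusted p = 0.00569). After 3 h 4 differed, where 11.5% of all genes did, among them CYP71B25 at 0.37 ± 0.12, which did not pass without any 1 of 8 of the 11 arrays (values from 0.32 to 0.42), namely replicates 1 and 2 of each of the 4 groups. The value for CYP71B25 did not pass with a replicate block either (adjusted p = 0.0528), nor with the arrays centred (adjusted p = 0.061). Between root and hypocotyl 1 gene differed after 3 h, where 5.3% of all genes did, and 4 after 24 h, where 7.48% did. CYP71B29 and CYP71B6 were among the latter, at 0.57 ± 0.15 and 0.36 ± 0.11. CYP71B29 stood at 0.47 to 0.50 and did not pass without 20 °C replicate 2 or 28 °C replicate 1 of the hypocotyl or 28 °C replicate 1 of the root, and it passed without any 1 of the others. CYP71B6 stood at 0.30 to 0.39 and did not pass without 20 °C replicate 1 or 2 or 28 °C replicate 1 of the hypocotyl, without 28 °C replicate 1 or 3 of the root or without any 1 of the 20 °C root arrays, nor with a replicate block (adjusted p = 0.0568). Between hypocotyl and cotyledon 1 gene differed after 3 h, where 3.35% of all genes did, and 0 after 24 h, where 12.1% did and 3 P450 genes had an unadjusted p under 0.05.

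Changes differed between times in few P450 genes. In the root, where 3.35% of all genes did, CYP71B37 moved from its fall to its rise by 1.07 ± 0.19 (adjusted p = 0.000915), and CYP71B26 by -0.70 ± 0.17 (adjusted p = 0.0148). The latter did not pass without 28 °C replicate 1 or 2 of the 3 h arrays, 20 °C replicate 3 of the 3 h arrays or 28 °C replicate 2 of the 24 h arrays (values from -0.59 to -0.71). In the cotyledon, where 16.4% of all genes differed, CYP71B26 did so by -0.75 ± 0.16 (adjusted p = 0.000847) and CYP71B6 by -0.52 ± 0.11 (adjusted p = 0.00111). Means of CYP71B26 there were 8.12 after 3 h and 8.94 after 24 h at 20 °C, and 8.67 and 8.74 at 28 °C. In the hypocotyl 0 P450 genes passed, where 0.659% of all genes did, and 1 had an unadjusted p under 0.05. The harvests also differ in time of day and seedling age, at ZT 10 and at ZT 7 of the next day. In these differences time at 28 °C cannot be told apart from time of day and age.

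The 11 genes that passed in no temperature comparison were CYP71B16, CYP71B27, CYP71B30P, CYP71B31, CYP71B34, CYP71B35, CYP71B36, CYP71B38, CYP718, CYP78A9 and CYP79A2. They include 3 of the 4 genes from CYP71B34 to CYP71B37, although CYP71B34 in the root after 24 h read 5.08, 5.21 and 5.09 at 20 °C and 5.49, 5.53 and 5.48 at 28 °C without overlap. A difference that did not pass does not show that these genes kept their level.

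Few P450 genes of known pathways, and few of their partners, could be read. Of 79 listed genes in 17 groups, from glucosinolate and brassinosteroid P450s to electron donors, 2 had a probe set that names them, both among the 11 partners of glucosinolate synthesis, to which CYP79A2 belongs. UGT74B1, which adds the glucose, was higher at 28 °C after 24 h in all 3 organs, by 0.89 ± 0.11 in cotyledon, 0.88 ± 0.11 in root and 0.36 ± 0.11 in hypocotyl. BCAT4, which starts the chain elongation of methionine, was higher in the same comparisons by 2.13 ± 0.09, 0.49 ± 0.09 and 0.98 ± 0.09. After 3 h UGT74B1 passed in no organ (0.08, 0.33 and 0.12 in the same order), and BCAT4 passed in cotyledon and hypocotyl, at 0.26 and 0.32, and stood at -0.22 in the root without passing. CYP79A2 differed after 24 h by -0.22, 0.01 and 0.00 and did not pass.

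The cyclophilins were tested in the same way. CYP59, which binds RNA and the tail of RNA polymerase II, was higher in the root at 20 °C than in cotyledon and hypocotyl, by 0.46 ± 0.08 and 0.30 ± 0.08, and passed in no temperature comparison. The gene CYP71, a WD40 cyclophilin of chromatin, was higher in root and hypocotyl than in the cotyledon by 0.61 ± 0.07 and 0.52 ± 0.07, and was higher in the cotyledon at 28 °C after 24 h by 0.37 ± 0.09 (adjusted p = 0.00247).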

How the data were processed

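Expression was measured on 35 Affymetrix arrays and deposited by the authors as log2 values per probe set, made with RMA, which corrects background, normalises quantiles and summarises probes. The submitters' processing notes name RMA and limma, with versions and the arrays normalised together not given in the sources used here. Probe sets that name 1 gene (13513 of 22746) were used, with 503 naming several genes and 8730 unlisted left out. For each of 13356 genes the probe set with the highest mean was kept. All 12 group means were fitted to all arrays (limma 3.58.1, R 4.3.3, lmFit and eBayes, 23 residual degrees of freedom), with two-sided tests, Benjamini-Hochberg adjustment over all genes and a threshold of 0.05. Organ comparisons average both harvest times at 20 °C. RefSeq TAIR10.1 gave names and gene order. Array number limits the precision.

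The P450 genes, gene lists and rules were chosen with earlier results of these data known. Named genes are, in each temperature comparison, up to 8 that passed in each direction, in each organ comparison up to 6, in each difference of changes up to 2. The rule also named CYP71B22 and CYP71B37 outright, as well as the listed groups. Values quoted for other genes were chosen after they were seen. Same-numbered arrays did not deviate together (r of deviations from -0.20 to 0.15, over 0.1 in 4 of 17 pairs), so replicate numbers were not used as pairs. Alternatives were another set of arrays in the fit, trend and robust estimation, dim genes left out, other scalings, other probe set rules, a replicate block, single harvest times, each array left out, and the cyclophilins counted too, chosen after seeing the data.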

Additional observations from a re-analysis of the deposited data

Results flagged for a closer look

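The change at 28 °C of some P450 genes differed between organs or times by a test of the difference itself (limma, adjusted over all genes), and these are worth a second reading. CYP71B22 gave -1.48 for root minus cotyledon and -1.39 for root minus hypocotyl after 3 h, and -1.39 and -1.26 after 24 h. CYP71B26 differed in 6 ways. After 3 h it gave -0.66 for hypocotyl minus cotyledon and -0.61 for root minus cotyledon. After 24 h it gave -0.57 for root minus cotyledon and -0.84 for root minus hypocotyl. Between times, 24 h minus 3 h, it gave -0.75 in the cotyledon and -0.70 in the root. The harvests of 3 h and 24 h also differ in time of day and seedling age, which cannot be told apart from time at 28 °C.

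CYP71B37 differed by 0.69 for root minus cotyledon after 24 h and by 1.07 for 24 h minus 3 h in the root. CYP71B23 differed by 0.99 for root minus cotyledon after 24 h. CYP71B6 differed by 0.36 for root minus hypocotyl after 24 h and by -0.52 for 24 h minus 3 h in the cotyledon. CYP71B29 differed by 0.57 for root minus hypocotyl after 24 h, and CYP71B25 by 0.37 for root minus cotyledon after 3 h. Groups of 2 or 3 arrays were too small to look for single outlying arrays.

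Leaving out 1 array at a time ended the call for 6 of these 17 values. The value of CYP71B25 after 3 h no longer passed without any 1 of 8 arrays, nor did that of CYP71B6 for root minus hypocotyl after 24 h without any 1 of 8. That of CYP71B29 was lost without any 1 of 3 arrays. For CYP71B26 both values after 3 h were lost without either of 2 arrays, and the difference between times in the root without any 1 of 4.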

How the results depend on the processing

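Of 69 values named for single P450 genes, 52 kept their direction and stayed past the threshold under every alternative run, 15 no longer passed without some 1 array, 9 no longer passed under another setting, and 0 changed sign. With the fit restricted to the arrays compared, the count of P450 genes that passed was 2 in the hypocotyl at 3 h, 2 and 3 in the cotyledon at 3 h and 24 h, 8 in the root at 24 h (5 higher and 3 lower), and 2 for root minus cotyledon at 3 h. Leaving out dim genes gave 2 in the cotyledon at 3 h, 11 for hypocotyl against cotyledon and 6 preferred in the cotyledon, with 9 P450 genes no longer tested. Centring the arrays gave 16 preferred in the cotyledon, and for hypocotyl minus cotyledon after 24 h moved the all-gene share of higher calls from 41.9% to 52% with 0 P450 genes passing either way. Using the 24 h arrays alone gave 11 for hypocotyl against cotyledon. Where no cause is given by the construction, the cause was not tested.

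Leaving out each array in turn, the counts ran from 1 to 2 and 3 to 4 in the hypocotyl at 3 h and 24 h, from 1 to 4 and 3 to 7 in the cotyledon, and from 1 to 3 and 3 to 4 in the root. They ran from 17 to 19 for root against cotyledon, 14 to 19 for hypocotyl against cotyledon and 12 to 14 for root against hypocotyl. Preferred genes numbered 5 in root, 1 in hypocotyl and 9 to 12 in cotyledon. For differences of changes the counts ran at 3 h from 0 to 1 (hypocotyl minus cotyledon), 1 to 4 (root minus cotyledon) and stayed at 1 (root minus hypocotyl), at 24 h stayed at 0 and ran from 5 to 8 and 2 to 5 in that order, and between times from 0 to 0 in hypocotyl, 2 to 3 in cotyledon and 1 to 2 in root. Without 1 warm root array at 3 h the group holds 1 array, assumed to vary like the others.

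The replicate numbers are shared between groups but did not pair the arrays, and 8 of 35 arrays were closest to an array of their own number. With a replicate block the P450 counts in the temperature comparisons were 1, 3, 5, 5, 3 and 4 in the order above, and 3 of the 69 values no longer passed. Dim probe sets limit what can be read of 9 of the 24 genes, and 2 warm root arrays limit the 3 h comparison in root.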
